A study of Mus musculus with 5 samples.

Results

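Fragments with a sharp step are MspI restriction fragments in which neighbouring CpG sites differed sharply in methylation level in a non-clonal population of mouse CD8+ T cells. They were chosen by the level of each CpG in the non-clonal population, the share of methylated calls among methylated and unmethylated ones. A fragment was taken when a pair of adjacent CpGs had at least 10 calls each in all 3 libraries and population levels at least 60 percentage points apart. The rule found 1730 fragments with 1967 steps, out of 116381 fragments with such a pair of covered CpGs and 531368 fragments with a CpG listed in any library. These steps were 0.401% of 490658 adjacent pairs.

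The cells were primary CD8+ T cells of C57BL/6 mice, the cytotoxic lymphocytes. The labels' protocol starts from naive spleen cells given IL2 at 1.2 ng/ml, names antibodies to CD3 and CD28 at the sort of individual CD8+ cells, and ends with their growth into clones. The files hold no expression values, so the cell type was not checked. The groups were clone 1 and clone 2, each from 1 founder cell, labelled with 15 cell divisions and 2 replicates, and the non-clonal population, with 1 sample. A clone's replicates were deposited together without a mark of which molecule is whose. Each clone is therefore 1 pooled library, no value has a spread between replicates, and every test compares libraries rather than conditions. Clone 1 listed 11969176 molecules, clone 2 listed 8977287 and the population 8463942. At the CpGs of the steps the median number of calls was 25 in clone 1, 21 in clone 2 and 19 in the population, against 24, 21 and 19 at the other adjacent pairs.

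CpG methylation in mammals is copied at each division by the maintenance methyltransferase Dnmt1, which acts on the newly made strand opposite a methylated CpG. Neighbouring CpGs usually carry the same state. Known places where it changes abruptly are the borders of CpG islands and sites covered by a bound protein. A difference between neighbouring CpG levels can be a step on each molecule or a blend of molecules, so the strings of calls on single molecules carry the answer. In such strings a filled circle (●) stands here for a methylated CpG and an open circle (○) for an unmethylated one, in the order of the CpGs in the fragment. The files give fragment numbers without coordinates, so fragments are named by number, and their genes and sequences were not analysed here.

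The molecules of 3 fragments show the kinds of step. Fragment 671109, with 5 CpGs, had a single methylated CpG. Over its first 4 CpGs, ○○●○ was carried by 22 of 23 fully called molecules in clone 1, 14 of 17 in clone 2 and 12 of 14 in the population. A single unmethylated CpG, at position 4 of 7, was seen in fragment 937787. Over CpGs 3 to 6, ●○●● was carried by 88 of 108 molecules in clone 1, 80 of 99 in clone 2 and 52 of 81 in the population. An edge lay in fragment 1355465, with 5 CpGs, where a run of unmethylated CpGs met a run of methylated ones. The pattern ○○●● over its first 4 CpGs was carried by 16 of 24 molecules in clone 1, 12 of 24 in clone 2 and 11 of 20 in the population. In clone 2 another 8 of the 24 molecules read ●○●●, with the edge in place and the outermost CpG methylated.

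A step was called isolated when one of its CpGs stood at least 60 points from both neighbours, and an edge when the next CpG out on either side lay within 30 points of its own side. Single unmethylated CpGs made up most of the isolated ones. There were 218 of them, giving 394 steps, and 41 single methylated CpGs, giving 69 steps. A further 6 steps joined 2 CpGs that were each isolated. Edges accounted for 226 steps. The largest kind, 1023 steps, lay where no covered CpG followed on one side, so that an isolated CpG and an edge could not be told apart, and these are called end steps. The other 249 were mixed, with a next CpG at a level that met neither definition. Among steps that could be assigned, 67.5% were isolated, a share that ran from 49.2% to 85.3% under the alternatives tried. The rules were unlike: an edge needed a covered CpG beyond both of its CpGs, an isolated step only beyond the lone CpG. Most lone CpGs also gave 2 steps, so the share leans to isolated ones. Counted once, lone CpGs were 218 unmethylated and 41 methylated, against 226 edge steps. These kinds come from the population levels that chose the members and are a description.

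**Figure D1:**
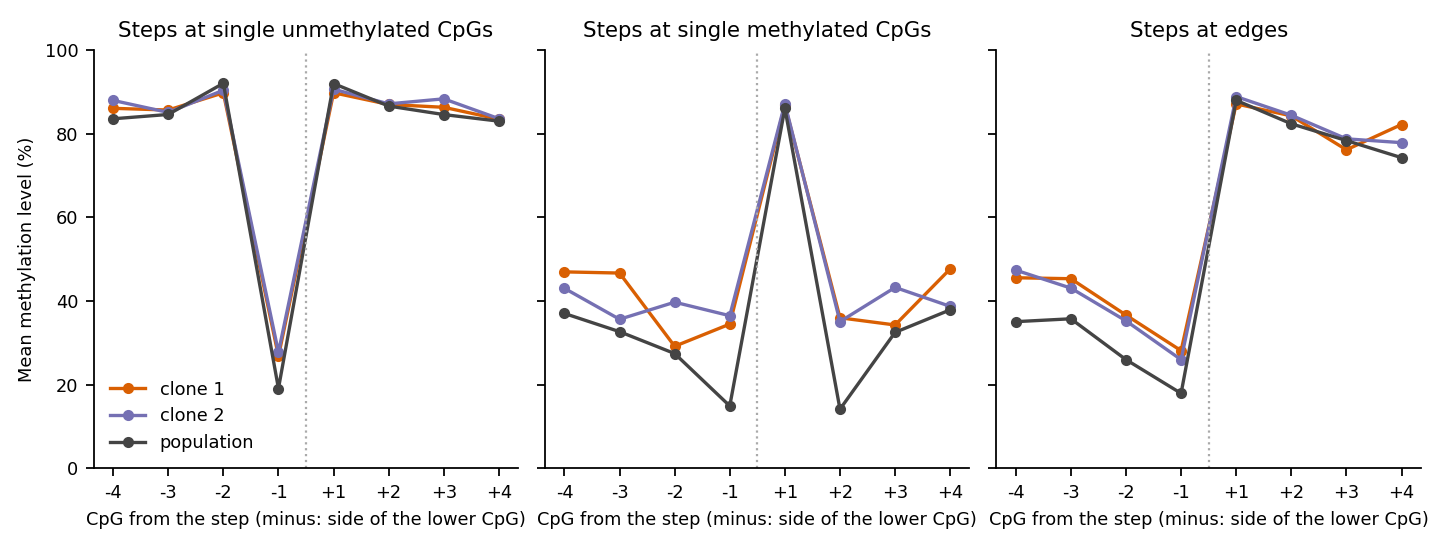
Mean methylation level (%) at CpGs counted from the step in clone 1, clone 2 and the population, with minus positions on the side of the lower CpG, for steps at single unmethylated CpGs, at single methylated CpGs and at edges. At edges the CpG before the step averaged 28.1% in clone 1, 26.0% in clone 2 and 17.9% in the population, and the CpG after it 87.1%, 88.9% and 88.0%; the population's step levels were used to choose the steps.

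Beyond the step, levels stayed high around single unmethylated CpGs and intermediate on the low side of edges. The plot of mean levels by distance shows this for all 3 libraries. At the second CpG past the single unmethylated one, the mean was 87.0% in clone 1, 87.2% in clone 2 and 86.6% in the population (175 CpGs). Around single methylated CpGs, the CpG 2 places from the higher one on the side of the step averaged 29.2%, 39.7% and 27.5% in the same order (36 CpGs). On the low side of edges the CpG 3 places out was at 45.3% in clone 1, 43.1% in clone 2 and 35.8% in the population (98 CpGs). The low CpG itself was at 28.1%, 26.0% and 17.9% in the same order (226 CpGs), the last a level that the choice held down. Few steps were close to complete in every library. The low CpG was at 10% or less in all 3 libraries at 237 of the 1967 steps, and the high CpG at 90% or more in all 3 at 843.

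Members were mostly fragments of intermediate mean level. They held 2 to 27 CpGs, with a median of 5 against 6 in the other covered fragments. Steps were 1.16% of the pairs on fragments with 2 to 4 CpGs, 0.523% with 5 to 9 and 0.0847% with 10 or more. Averaged over the fragment, the median member stood at 65.6% in clone 1, 67.0% in clone 2 and 60.3% in the population, against 89.1%, 90.1% and 88.0% for the other covered fragments. The share of fragments at 20 to 80% was 72.8% of members in clone 1, 71.6% in clone 2 and 86.8% in the population, and 14.1%, 13.6% and 12.7% of the others. The rule itself favours a middle mean, since it asks for a high and a low CpG. A fragment carried 1 step in 1504 cases, 2 steps in 217 and 3 or more in 9. The higher CpG came second in file order at 1002 steps and first at 965.

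Steps were frequent at the outermost pair of a fragment, which held 42.6% of steps and 21.0% of all covered pairs. This comparison was not split by fragment size. Small fragments had more steps per pair, and more of their pairs are outermost, so position and size are mixed in it. At these 837 steps the outermost CpG was the higher one in 508 and the lower one in 329. That CpG belongs to the MspI site and was read almost only on 1 strand, so at these steps strand and position cannot be told apart. Leaving out the first and last CpG of every fragment gave 1012 members, and leaving out only the strand ends that the fill-in reaction rebuilds gave 1721.

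The strands can be compared in the clones, whose levels did not choose the steps. Of 868 steps with at least 5 calls on each strand at both CpGs in clone 1, 521 were at least 40 points wide on both strands, 96 were under 20 points on both, and 33 had at least 40 points on one strand and under 20 on the other. In clone 2 these were 447, 81 and 41 of 754 steps. In the population 784 of 826 steps were at least 40 points wide on both strands and 7 under 20 on one of them, a count that the choice at 60 points over both strands largely fixed. At fragment 937787 the single unmethylated CpG had 2 of 62 methylated calls on the plus strand and 0 of 66 on the minus strand in clone 1, 2 of 53 and 7 of 65 in clone 2, and 9 of 47 and 7 of 68 in the population. The low CpG differed between strands by 60 points or more at 28 of 1310 steps in clone 1, 18 of 1152 in clone 2 and 20 of 1290 in the population, which was 2.14%, 1.56% and 1.55%, against 0.173%, 0.181% and 0.200% of all CpGs read on both strands. Levels were not matched in this comparison, and a low CpG shared by neighbouring steps counts at each of them. Some steps away from the ends were read almost wholly from 1 strand. At 141 of 1084 of them, or 13.0%, at least 90% of the molecules came from 1 strand, against 4.33% of all such pairs. The part of strand imbalance in the steps was not tested.

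The clones were not used to choose the members beyond their coverage, so their own steps can be tested. In clone 1 the difference, taken in the direction of the population, had a median of 60 points (quartiles 35.4 and 84.8), and in clone 2 also 60 (36.6 and 84.6). It was 60 points or more at 991 steps in clone 1, or 50.4%, and at 985 in clone 2, or 50.1%. Over all covered pairs these shares were 1.74% and 1.80%. A further 683 and 699 steps had 20 to 60 points. The clone was flat, with under 20 points, at 274 steps in clone 1 and 259 in clone 2, and turned round by at least 20 points at 19 and 24. By an exact two-sided sign test on molecules with exactly 1 of the 2 CpGs methylated, with Benjamini-Hochberg adjustment over all 490658 pairs, 1064 steps passed in clone 1 and 944 in clone 2 in the direction of the population. That is 54.1% and 47.99% of steps, against 3.77% and 2.96% of all pairs.

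Both clones had a step of 60 points or more at 614 of the 1967 steps, or 31.2%. At 119 steps all 3 libraries reached 80 points. Clone 1 kept the step where clone 2 was flat at 87 steps, and clone 2 kept it where clone 1 was flat at 88. Both clones were flat at 63. The mean width in the clones followed the population width. Pairs at 40 to 60 points in the population, just below the threshold, averaged 36.6 points in clone 1 and 36.0 in clone 2, against 47.3 in the population. Pairs at 60 to 80 averaged 53.7 in both clones, against 67.2, and pairs at 80 to 100 averaged 72.8 in clone 1 and 72.3 in clone 2, against 87.0. The population value is the one that sorted the pairs, so its excess over the clones holds an effect of the choice.

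**Figure D2:**
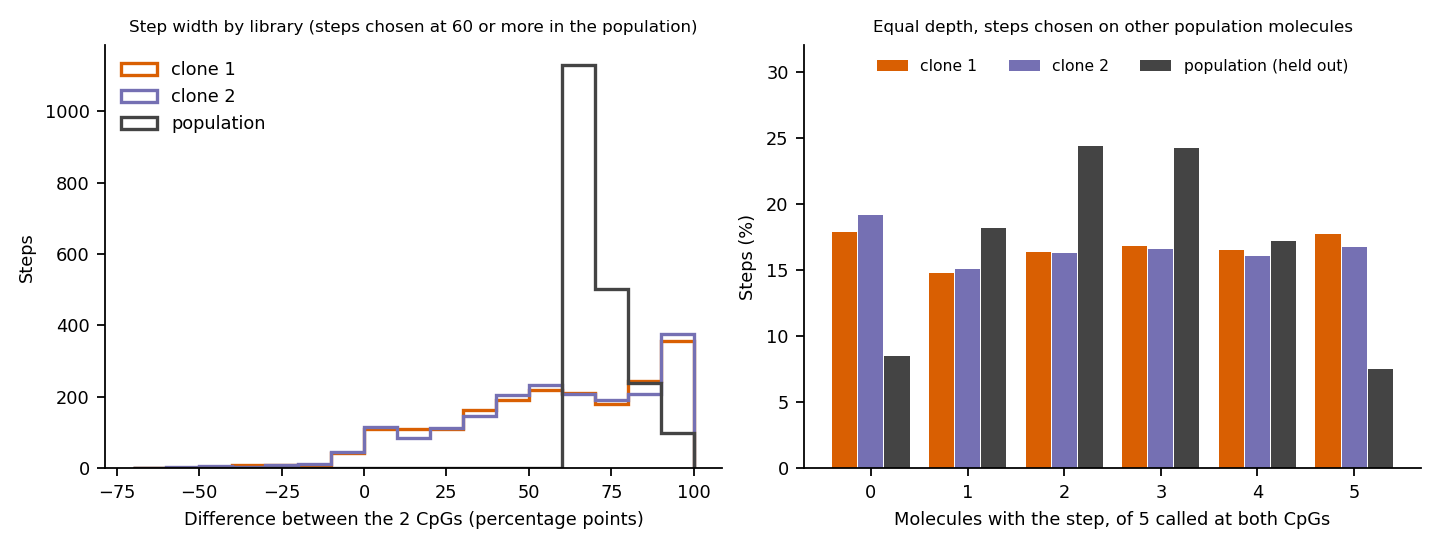
Left, the width of the 1967 steps (percentage points, in bins of 10) in clone 1, clone 2 and the population, which chose them at 60 or more. Right, bars of the share of 2470 steps by how many of 5 molecules carried the step, for steps chosen on other population molecules; 17.9% in clone 1, 19.2% in clone 2 and 8.52% in the held-out population molecules had none.

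An effect of this kind was measured by choosing steps on a random part of the population's molecules and reading the rest. Each part needed at least 5 calls at a CpG, so these steps are not the members and rest on fewer calls. The size of the effect at the members themselves was not measured. At 2678 steps chosen in this way, the mean width was 47.2 points in clone 1 and 45.8 in clone 2, against 46.0 in the population molecules not used for the choice. On average, then, the clones' steps were about as wide as those of unused molecules of the population itself. Widths of 60 points or more were found at 38.4% of these steps in clone 1, 37.5% in clone 2 and 33.0% in the unused molecules. The high CpG averaged 84.1% in clone 1, 85.2% in clone 2 and 80.1% in the unused molecules, and the low CpG 36.9%, 39.4% and 34.0%, so both CpGs lay higher in the clones. No test was made of these means, since steps of 1 library are not replicates.

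The clones differed from the population in how the step was spread over molecules. With exactly 5 molecules called at both CpGs, drawn in expectation from each library at 2470 of these steps, all 5 carried the step at 17.7% of steps in clone 1, 16.7% in clone 2 and 7.53% in the unused population molecules. None of 5 carried it at 17.9%, 19.2% and 8.52% in the same order. The mean share of step molecules was nearly the same, 50.5% in clone 1, 49.1% in clone 2 and 49.2% in the population. The middle classes were smaller in the clones: 2 of 5 was found at 16.3% in clone 1, 16.3% in clone 2 and 24.4% in the population. Edges showed the pattern with 21.5% of 269 steps at 5 of 5 in clone 1, 21.2% in clone 2 and 8.29% in the population. Single unmethylated CpGs had 19.3%, 18.4% and 10.8% (526 steps), and single methylated ones 9.89%, 11.2% and 3.298% (145 steps).

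Molecule by molecule, most calls at the members were either the step or both CpGs methylated. Over steps with at least 10 molecules called at both CpGs, the step was on a mean of 58.8% of molecules in clone 1 (1837 steps), 59.2% in clone 2 (1751) and 70.9% in the population (1724). Both CpGs were methylated on 29.0%, 29.8% and 18.6%, and both unmethylated on 10.2%, 9.02% and 9.82%. The turned-round state was rare, with 2.06%, 2.03% and 0.749%. In the population a wide step forces a high share of step molecules, so its values describe the choice. At the held-out steps both CpGs were methylated on 34.0% of molecules in clone 1, 36.1% in clone 2 and 30.7% in the unused population molecules, and both unmethylated on 12.5%, 11.5% and 16.7%.

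**Figure D3:**
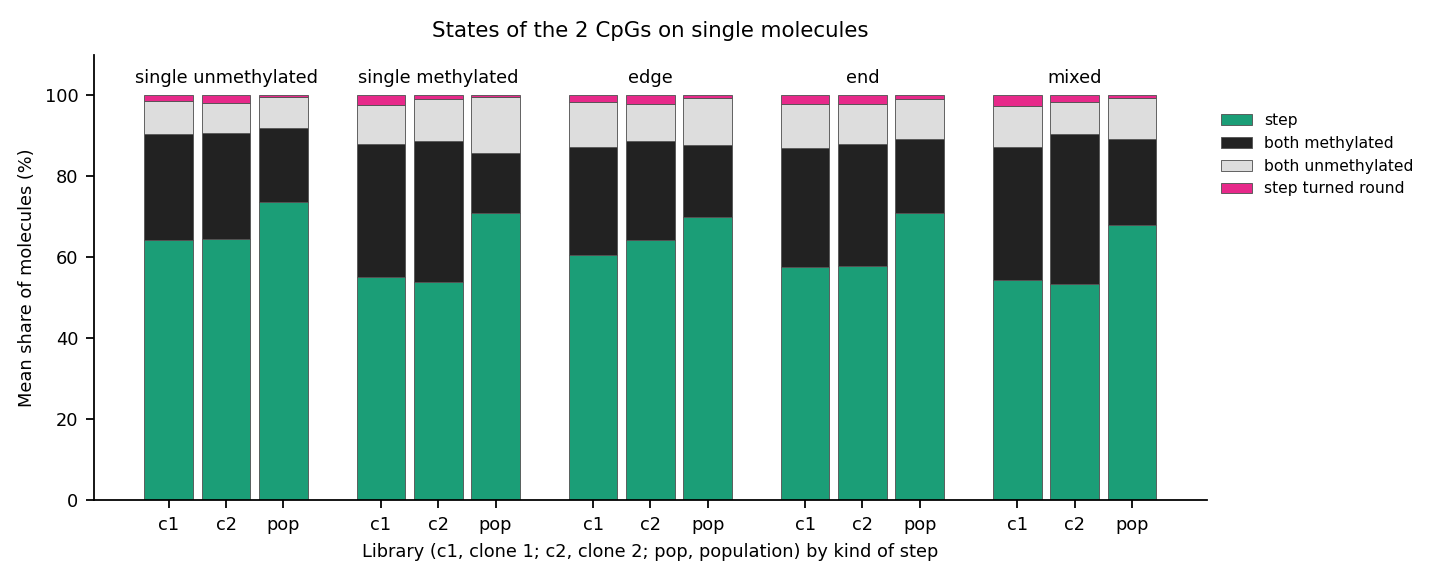
Mean share of molecules (%) in each state of the 2 CpGs of a step, for clone 1 (c1), clone 2 (c2) and the population (pop) by kind of step; stacked colours stand for the step, both methylated, both unmethylated and the step turned round. At single unmethylated CpGs the step was on 64.3% of molecules in clone 1, 64.5% in clone 2 and 73.5% in the population, which chose the steps.

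Single unmethylated CpGs had the highest share of steps kept in clone 1, 59.1%, and also 59.1% in clone 2, and edges had 54.0% and 58.0%. End steps had 48.2% in both clones, mixed ones 45.4% and 39.0%, and single methylated CpGs 42.0% in both. The sign test found 276 of 394 steps at single unmethylated CpGs in clone 1 and 245 in clone 2, 151 and 129 of 226 at edges, and 36 and 27 of 69 at single methylated CpGs. Differences between the kinds were not tested. Median population width was 70.8 points at single unmethylated CpGs, 66.7 at edges, 67.8 at end steps, 65.9 at mixed and 67.5 at single methylated ones. Kept steps rose with that width, from 45.4% at 60 to 80 points in both clones to 74.4% in clone 1 and 72.6% in clone 2 at 80 to 100. Kind and width are therefore mixed in these shares. The 394 steps came from 218 lone CpGs, so most of these count at more than 1 step.

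Across 3 CpGs, the lone unmethylated CpG was seen on the same molecule as both its methylated neighbours. Over 114 such places with at least 10 fully called molecules in each library, ●○● made up 59.01% of molecules in clone 1, 58.5% in clone 2 and 67.7% in the population. The state ●●●, with the gap filled, made up 24.3%, 23.6% and 15.8%. Molecules with 1 neighbour also unmethylated were fewer: ●○○ and ○○● were at 5.21% and 5.92% in clone 1, 7.36% and 6.11% in clone 2, and 6.46% and 6.82% in the population. Lone methylated CpGs were seen with both neighbours unmethylated in all 3 libraries. Over 19 such places, ○●○ made up 35.1% in clone 1, 41.1% in clone 2 and 63.8% in the population, and ●●● 24.7%, 18.7% and 6.10%. The population's levels chose these places, so its shares describe the choice. At held-out single unmethylated CpGs the step was on 54.7% of molecules in clone 1, 53.2% in clone 2 and 53.5% in unused population molecules. Both CpGs of the step were methylated on 35.4%, 35.7% and 34.4%. At held-out single methylated CpGs the step was on 43.1%, 43.7% and 42.2%, and both CpGs were methylated on 26.9%, 30.3% and 18.0%.

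At edges, a minority of whole molecules carried the change with both CpGs alike on either side. Over 94 edges with at least 10 molecules called at 4 CpGs in each library, and turned so that the low side comes first, ○○●● made up 31.8% of molecules in clone 1, 37.2% in clone 2 and 45.9% in the population. Other patterns had the step in place and an outer CpG in the other state. The edge with a methylated outermost CpG, ●○●●, made up 14.7%, 16.4% and 14.1%. With an unmethylated outermost CpG on the high side, ○○●○ made up 6.49%, 5.91% and 7.82%. With both outer CpGs changed, ●○●○ made up 3.34%, 2.87% and 1.45%. Fully methylated molecules, ●●●●, stood at 16.4% in clone 1, 17.1% in clone 2 and 9.49% in the population, and fully unmethylated ones, ○○○○, at 4.09%, 3.14% and 4.99%. A change displaced by 1 CpG into the low side, ○●●●, made up 11.4%, 6.73% and 7.23%, and into the high side, ○○○●, 5.36%, 4.67% and 5.42%. The population's levels chose the edges, so its shares describe the choice. At held-out edges the step was on 53.3% of molecules in clone 1, 52.5% in clone 2 and 52.7% in unused population molecules. Both CpGs of the step were methylated on 31.0%, 31.7% and 24.4%.

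Most of the deepest named fragments had the step in all 3 libraries. In fragment 671109 the methylated CpG had 40 of 43 methylated calls in clone 1, 32 of 33 in clone 2 and 31 of 32 in the population, and the CpG before it 0 of 44, 0 of 33 and 1 of 34. The step was on 38 of 41 molecules in clone 1, with a Wilson 95% interval of 80.6 to 97.5%, on 31 of 32 in clone 2 (84.3 to 99.4%), against 28 of 30 in the population (78.7 to 98.2%). The intervals, which cover counting error only, overlap in all 3 libraries. Fragment 937787 had its step on 108 of 116 molecules in clone 1 (87.0 to 96.5%), 95 of 104 in clone 2 (84.4 to 95.4%), with 75 of 93 in the population (71.5 to 87.4%). Fragment 1355465 had the edge on 35 of 39 molecules in clone 1, 37 of 38 in clone 2 and 26 of 38 in the population. Fragment 704418, an end step on 3 CpGs, had it on 67 of 72 molecules in clone 1, 68 of 70 in clone 2 and 60 of 62 in the population.

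Other deep fragments had a step that differed between the clones. Their kind was named from the population, and the levels around the step could differ in a clone. Fragment 703529, with 4 CpGs and a population edge, had the step between CpGs 2 and 3 on 47 of 48 molecules in clone 1, 25 of 37 in clone 2 and 23 of 38 in the population. Its CpG 4, past the low CpG, was at 63.0% in clone 1, 93.3% in clone 2 and 42.1% in the population, so the low CpG stood at least 60 points below both neighbours in the clones. The difference between clone 1 and clone 2 was 30.3 points (Fisher's exact test, Benjamini-Hochberg adjusted p 0.00328). Fragment 1216947, also with 4 CpGs and a population edge, had the step on 18 of 43 molecules in clone 1, 29 of 33 in clone 2 and 31 of 46 in the population (adjusted p 0.00138, Fisher's exact test). In clone 1 the other state there was both CpGs unmethylated, on 24 of the 43 molecules, and the high CpG was at 44.7% in clone 1, 89.5% in clone 2 and 71.4% in the population. Fragment 991756, a single methylated CpG, had the step on 18 of 27 clone 1 molecules, 11 of 28 in clone 2, against 23 of 33 in the population, a difference between the clones that did not pass (adjusted p 0.434, Fisher's exact test).

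Depth on 1 strand marks some of these fragments. In fragment 555408, with 10 CpGs, a single unmethylated CpG had its step on 55 of 59 molecules in clone 1, 56 of 61 in clone 2 and 52 of 55 in the population. All of its calls at the step in the clones came from the plus strand, and all of those of fragment 248986 from the minus strand. In that fragment, with 8 CpGs, the step was on 43 of 54 molecules in clone 1, 43 of 52 in clone 2 and 50 of 52 in the population. Fragments 704418 and 924381, both end steps, had calls at the high CpG on the minus strand only, in all 3 libraries. Fragment 1417685, an end step on 16 CpGs, differed by strand at its low CpG. Methylated calls there were 1 of 53 on the plus and 5 of 5 on the minus strand in clone 1. They were 1 of 58 and 4 of 5 in clone 2, and 0 of 50 and 2 of 2 in the population.

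At the threshold itself, 193 steps lay at 60 to 61 points and 112 pairs at 59 to 60. Fragment 337195, just inside, was 33.3 points wide in clone 1, 53.1 in clone 2 and 60.6 in the population, and fragment 993694 was 88.6, 80.9 and 60.5. Fragment 634448, just outside, was 53.7 points wide in clone 1, 63.2 in clone 2 and 59.5 in the population, and fragment 357156 was 85.7, 51.0 and 59.4. The strands of fragment 634448 differed in the population, where CpGs 3 and 4 were methylated in 9 of 9 and 9 of 9 calls on the plus strand, and in 4 of 28 and 26 of 28 on the minus strand. Pairs on either side of the threshold thus covered overlapping widths in the clones.

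Clone 1 and clone 2 were then compared on the share of molecules with the step, a measure that the choice of members did not use. Of 1717 steps with at least 10 molecules called at both CpGs in each clone, 363 passed Fisher's exact test with an adjusted p under 0.05 and at least 20 points, on 347 fragments. That is 21.1%, against 7.98% of all 289539 pairs tested. By population width, 6.31% of pairs under 20 points were called, 18.9% at 20 to 40 points and 23.0% at 40 to 60. Among the steps, 22.5% were called at 60 to 80 points and 13.98% at 80 to 100. The step was commoner in clone 1 at 186 of them and in clone 2 at 177, with a median difference of 57.1 points. Among all pairs tested these directions made up 3.97% and 4.01%.

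**Figure D4:**
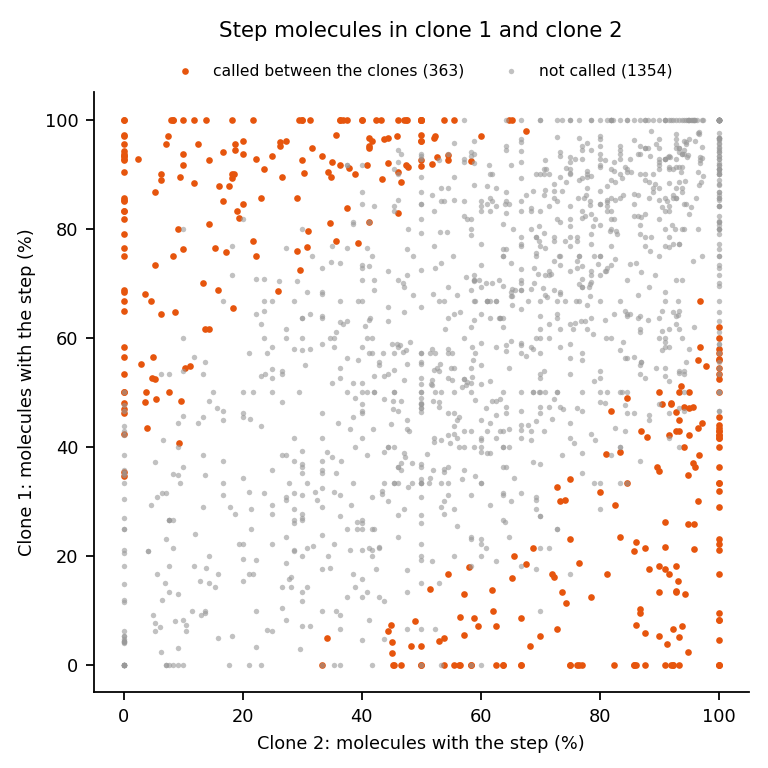
Share of molecules with the step (%) in clone 1 (vertical) and clone 2 (horizontal), 1 point per step with at least 10 molecules called at both CpGs in each clone; the 363 steps called by Fisher's exact test are orange and the 1354 others grey. Called steps lie away from the diagonal, with 22 at 90% or more in clone 1 and 10% or less in clone 2, and 18 the other way. The step was still the commonest state of the other clone at 29 steps commoner in clone 1 and 25 commoner in clone 2.

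Where the step was on fewer molecules of a clone, both CpGs were mostly methylated there. At the 186 steps commoner in clone 1, the median share of step molecules was 91.2% in clone 1 and 18.9% in clone 2, with 68.8% in the population. The commonest state in clone 2 was both methylated at 120 of them, both unmethylated at 32, still the step at 29 and the step turned round at 5. At the 177 steps commoner in clone 2, the medians were 17.6% in clone 1 and 90.0% in clone 2, with 68.2% in the population. In clone 1 the commonest state was both methylated at 109, both unmethylated at 41, the step at 25 and the turned-round step at 2. Of the 274 steps under 20 points wide in clone 1, 199 had both CpGs at 50% or more, 136 of them at 80% or more, and 31 had both at 20% or less. In clone 2 these were 195, 143 and 27 of 259.

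In the widest of these differences, every molecule of 1 clone or nearly so had the step and none of the other did. Fragment 327144, with 5 CpGs, had an edge between CpGs 3 and 4 on 26 of 26 molecules in clone 1, where the Wilson interval was 87.1 to 100%, on 0 of 12 in clone 2 (0 to 24.2%), with 11 of 14 in the population (adjusted p 1.24e-07, Fisher's exact test). In clone 2, 9 of the 12 molecules had both CpGs unmethylated and 3 were turned round. Over CpGs 2 to 5, clone 1 read ●●○○ on 12 of 12 molecules and clone 2 read ○○○○ on 5 of 6, with ●●○○ on 4 of 9 in the population. In fragment 1334490, with 6 CpGs, a single unmethylated CpG was on 16 of 16 molecules in clone 1, 0 of 10 in clone 2 and 10 of 14 in the population (adjusted p 2.13e-05, exact test). Its gap was filled in clone 2, where ●●●● over CpGs 2 to 5 was carried by 6 of 7 molecules. Fragment 1213288, with 4 CpGs, had the step on 32 of 33 molecules in clone 1, 0 of 13 in clone 2 and 12 of 19 in the population, and all 13 molecules of clone 2 had both CpGs methylated.

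In a few fragments, a clone without the step carried a blend of molecules methylated at both CpGs of the step and molecules unmethylated at both. Fragment 1285699, with 4 CpGs, had the step on 35 of 36 molecules in clone 1, 0 of 30 in clone 2 and 8 of 12 in the population (adjusted p 3.07e-14, Fisher's exact test). Clone 2 had both CpGs methylated on 10 of its 30 molecules and both unmethylated on the other 20. Fragment 449926, with 3 CpGs, had the step on 0 of 23 molecules in clone 1, 30 of 30 in clone 2 and 13 of 16 in the population (adjusted p 3.57e-12, Fisher's exact test). In clone 1, 10 molecules had both CpGs methylated, 12 had both unmethylated and 1 was turned round. Fragment 774575, with 8 CpGs, had the step between its first CpGs on 0 of 14 clone 1 molecules, 13 of 13 in clone 2, with 8 of 11 in the population. Over its first 4 CpGs, clone 1 read ○○○○ on 7 molecules and ●●●● on 6, and nothing else, while clone 2 read ●○○○ on 9 and ●○○● on 3. Over all steps, 149 had the step on 10% of molecules or fewer in clone 1 and 154 in clone 2. Both CpGs methylated and both unmethylated were each on at least 25% of molecules at 25 of these in clone 1 and 21 in clone 2. Both methylated made up at least 75% at 85 in clone 1 and 100 in clone 2, and both unmethylated at 23 and 19. Whether the 2 kinds of molecule come from the 2 alleles was not tested.

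**Figure D5:**
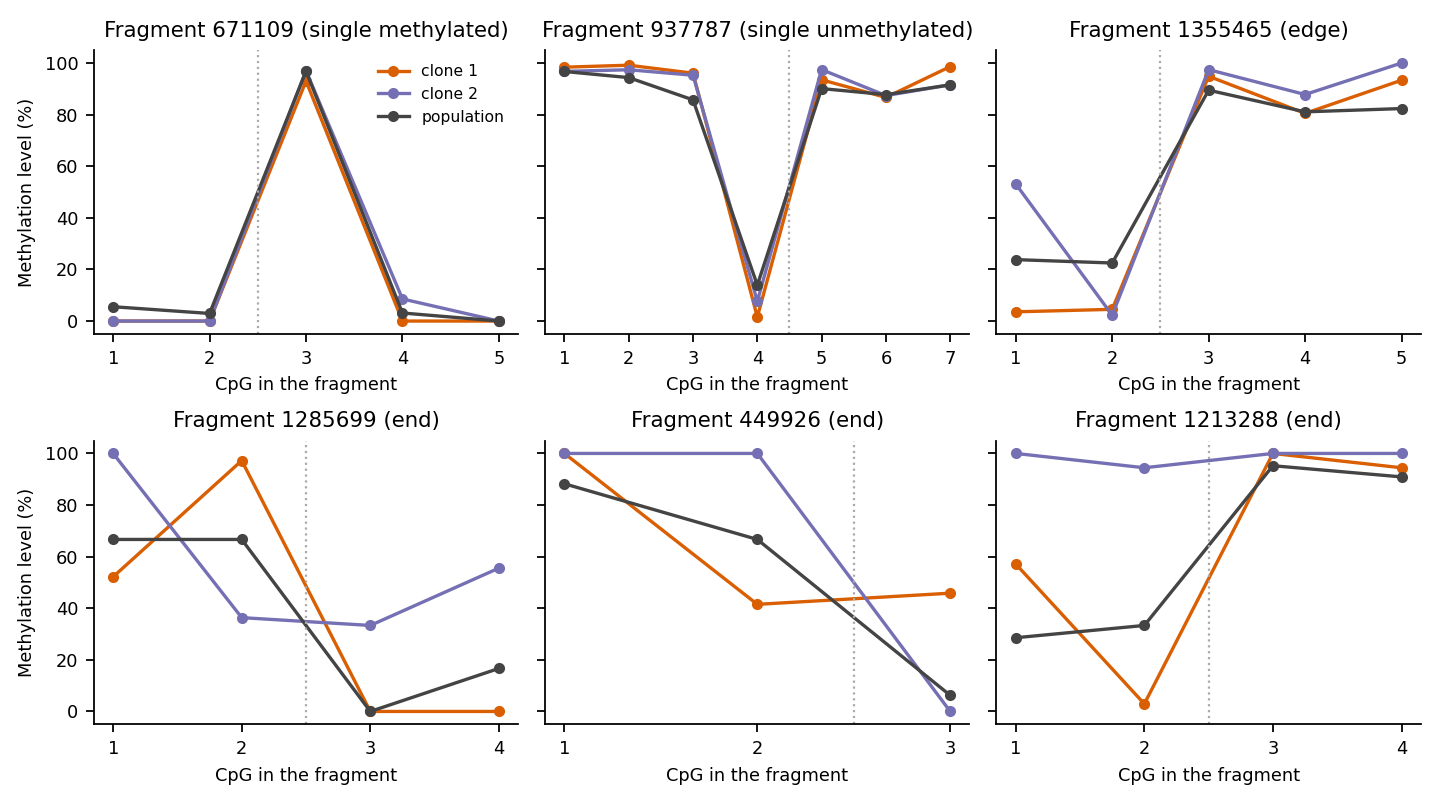
Methylation level (%) of each CpG, in file order, in clone 1, clone 2 and the population for 6 fragments of those named (points with at least 5 calls; dotted line, the step). The upper 3 have the step in all 3 libraries, and the lower 3 have it in 1 clone and the population, as with fragment 449926 at 41.5% and 45.8% in clone 1, 100% and 0% in clone 2 and 66.7% and 6.25% in the population.

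In fragment 155824 the change lay at a different CpG in clone 1, and fragment 378323 was less clear. Fragment 155824, with 8 CpGs, had its population edge between CpGs 4 and 5, and 13 of 19 population molecules carried it there. Clone 2 had it on 12 of 12 molecules and clone 1 on 0 of 11. In clone 1 the level was 76.2% at CpG 3 and 9.52% at CpG 4, so its edge lay 1 CpG earlier, and ●○○○ over CpGs 3 to 6 was on 7 of 11 molecules there, against 0 of 11 in clone 2 and 4 of 17 in the population.

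Fragments with the next number, which by their numbering may lie beside a member, differed by the side that faced them. For edges, the fragment facing the low side had a median level of 41.4% in clone 1, 34.4% in clone 2 and 29.7% in the population (80 fragments with at least 10 calls per library). The fragment facing the high side had 81.2%, 77.8% and 71.5% (55 fragments). For single unmethylated CpGs both sides faced methylated fragments, at 88.4% in clone 1, 90.4% in clone 2 and 87.8% in the population on the low side (58 fragments) and 87.8%, 90.2% and 86.8% on the high side (64). The files do not state that numbers follow the genome.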

How the data were processed

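Per the labels' protocols, MspI fragments of 200 to 500 bp were joined to tagged plasmids and amplified after bisulfite treatment. The submitters' processing notes name Bismark and build mm9. Versions, filters and the joining of replicates: not given in the sources used here. The deposited files hold per line a fragment number, strand, tag, string of calls and a count of reads, not normalized. Each line was 1 molecule. A last whole number of unstated meaning, 1 column in each of 3 files, was not used.

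Levels are methylated calls over all calls. Pairs were tested with exact sign and Fisher tests (Python 3.11.15, scipy 1.17.1, numba 0.67.0), adjusted by Benjamini-Hochberg over all pairs, and tested on simulated data. A call between the clones needed an adjusted p under 0.05 and 20 points. Intervals are Wilson 95%. Fragments are named by rule: the 3 deepest single methylated, single unmethylated, edge and end steps, the 3 deepest on either side of the threshold, and the 4 widest differences between the clones per direction. Members and lists were chosen with earlier results of these data known. Alternatives changed coverage, width, strands, ends, reads per molecule, deep strands and the molecules used for the choice. The limits for a blend of molecules were chosen after seeing the data.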

Additional observations from a re-analysis of the deposited data

Results flagged for a closer look

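Clone 1 and clone 2 differed in the share of molecules with the step, by a direct test between them, at 186 steps with more step molecules in clone 1 and 177 with more in clone 2 (two-sided exact Fisher test, adjusted over all pairs tested). Each clone is 1 pooled library, so the test does not separate clones from libraries. The share of molecules on 1 strand and the depth of these steps were not tested as a part of the difference.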

How the results depend on the processing

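Of 125 values recomputed under other settings, 38 stayed within the spread allowed and 87 moved. All are counts or shares without a sign, so none could turn direction. The cause of the moves was not tested. Steps of at least 40 points on both strands gave 732 fragments, an isolated share of 49.2%, kept steps at 47.3% in clone 2, step molecules at 57.7% in clone 2, sign-test counts of 511 in clone 1 and 433 in clone 2 and 202 calls between the clones. At least 20 calls gave 347 fragments, an isolated share of 81.4%, kept steps at 55.9% in clone 1 and 59.7% in clone 2, step molecules at 63.5% in clone 1 and 65% in clone 2, sign-test counts of 342 in clone 1 and 346 in clone 2 and 98 calls between the clones. At least 5 calls gave 3825 fragments, kept steps at 46.6% in clone 1 and 46.3% in clone 2 and step molecules at 56.3% in clone 1 and 56% in clone 2. First and last CpG left out gave 1012 fragments, an isolated share of 71.9% and sign-test counts of 690 in clone 1 and 618 in clone 2. Minus strand alone gave 794 fragments, an isolated share of 76.2%, step molecules at 57.2% in clone 1 and 57.2% in clone 2, sign-test counts of 404 in clone 1 and 339 in clone 2 and 123 calls between the clones. Molecules with at least 2 reads gave 230 fragments, an isolated share of 85.3%, kept steps at 53.8% in clone 1 and 57.1% in clone 2, step molecules at 62.2% in clone 1 and 61.2% in clone 2, sign-test counts of 68 in clone 1 and 122 in clone 2 and 16 calls between the clones. Plus strand alone gave 802 fragments, an isolated share of 76.8%, kept steps at 47.7% in clone 1, step molecules at 57.5% in clone 1 and 57.9% in clone 2, sign-test counts of 382 in clone 1 and 346 in clone 2 and 125 calls between the clones. Steps of at least 50 points gave 3640 fragments, kept steps at 39.8% in clone 1 and 39.8% in clone 2, step molecules at 52% in clone 1 and 51.7% in clone 2, sign-test counts of 2026 in clone 1 and 1731 in clone 2 and 847 calls between the clones. Steps of at least 80 points gave 307 fragments, an isolated share of 61.7%, kept steps at 74.4% in clone 1 and 72.6% in clone 2, step molecules at 74% in clone 1 and 74.9% in clone 2, sign-test counts of 233 in clone 1 and 209 in clone 2 and 39 calls between the clones. A flank tolerance of 20 points gave an isolated share of 75.9%. Steps chosen on 1 random part of the population gave an isolated share of 72.2%, kept steps at 38.4% in clone 1 and 37.5% in clone 2 and step molecules at 50.3% in clone 1 and 49.1% in clone 2. Strands with over 25 molecules left out gave an isolated share of 60.8%, kept steps at 47.7% in clone 1 and 47.6% in clone 2, step molecules at 57% in clone 1 and 58.1% in clone 2 and sign-test counts of 582 in clone 2. Counting steps as kept at 40 points gave kept steps at 71.2% in clone 1 and 72.3% in clone 2. Molecules weighted by reads gave kept steps at 45.4% in clone 1 and 45.4% in clone 2 and step molecules at 55.2% in clone 1 and 55.2% in clone 2. Choosing on 1 part with at least 5 molecules in the other part and in both clones gave step molecules at 50.5% in clone 1 and 49.1% in clone 2. Asking for 20 or more molecules called at both CpGs gave 170 calls between the clones. The alternatives of both strands and of 5 molecules in the other part were chosen after seeing the data. No paired analysis was possible because the replicates of a clone are pooled in 1 file, and leaving out a replicate could not be run for the same reason. Depth limits single steps, with a median of 20 molecules called at both CpGs in clone 1, 16 in clone 2 and 15 in the population.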
